A study of Mus musculus with 36 samples.

Results

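Nephron progenitor cells (NPCs) are the cells of the developing kidney that divide to renew themselves and that form the nephrons. The comparison described here set wild-type NPCs cultured with no CHIR99021 (CHIR) against wild-type NPCs cultured in low CHIR, across all genes. It took 6 of the 36 libraries of the series, chosen by their labels. There were 3 libraries with no CHIR (0 µM) and 3 in low CHIR (1.25 µM), and 17192 of the 25760 genes in the table averaged 10 or more normalized counts over these 6 and were tested.

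Both groups shared every other condition that the study gives. Primary NPCs were taken from wild-type mouse kidneys at embryonic day 16.5, after enzymatic digestion and the magnetic depletion of other cells. They were plated in low CHIR in nephron progenitor expansion medium (NPEM), a defined medium, and the CHIR level was then changed or kept. So the cells with no CHIR had seen low CHIR first, and the comparison is one of CHIR withdrawal with CHIR maintained. Embryos were of Swiss Webster or C57Bl/6 stock and their sex was not distinguished. No source used here says whether the 3 libraries of a group came from separate cultures, so the p-values measure the spread between these libraries, which may be technical.

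CHIR inhibits GSK3, the kinase that marks β-catenin for degradation, and so mimics a canonical Wnt signal. Stabilised β-catenin enters the nucleus and works with the DNA-binding factors of the Tcf/Lef family. In the kidney a weak Wnt input accompanies NPC expansion, and a strong input from the ureteric bud starts nephron formation, with *Wnt4*, *Lef1* and *Lhx1* among the early genes. Progenitor identity rests on transcription factors such as Six2, Osr1, Eya1 and Sall1.

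The libraries with no CHIR held between 13651129 and 76071568 reads on genes and those in low CHIR between 14888650 and 22021566. The deepest was replicate 1 with no CHIR. Correlations of log2 values across genes were between 0.958 and 0.979 within groups and between 0.929 and 0.966 between them. Values are normalized counts, that is reads divided by 1 size factor per library, and they are not divided by gene length, so they are compared within a gene only. Differences are fitted by limma on log2(normalized count + 1), given as no minus low CHIR, and understate the change of genes with low values. In the text a gene rose or fell if it was called, at an adjusted p under 0.05 and a log2 difference of at least 0.5. In these bulk libraries fewer cells of a type and less RNA per cell cannot be told apart.

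With no CHIR, 959 genes were higher and 1079 lower, which is 11.9% of the genes tested (5.58% higher and 6.28% lower). The groups did not overlap for 33.2% of genes. At an unadjusted p under 0.05 there were 1951 genes higher and 1771 lower, and the median difference over all genes was 0.02. The counts depended on which libraries were fitted. A fit of all 9 wild-type libraries, with the 3 in high CHIR (5 µM) included, called 427 genes higher and 460 lower. High CHIR replicate 3 stood apart from the other libraries of its group, with 104 normalized counts of *Lhx1* against 5949 and 6706, and this spread enters the error of that fit. Without no CHIR replicate 3 the 6-library fit called 294 genes higher and 388 lower. Leaving out a low CHIR library gave between 486 and 633 higher and between 456 and 572 lower, and without no CHIR replicate 1 there were 1663 lower. Counts in the lists below are to be set against the 5.58% higher and 6.28% lower of all genes tested. Called in either direction were 36.7% of early nephron, 30.4% of Wnt target, 30.8% of Notch and 23.1% of Wnt ligand and receptor genes. For glycolysis, hypoxia, BMP and TGF-β, matrix and axon guidance genes the shares were 28.6%, 37.5%, 25.9%, 20.0% and 30.8%. The plot of gene lists shows where the called genes lay.

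**Figure D1:**
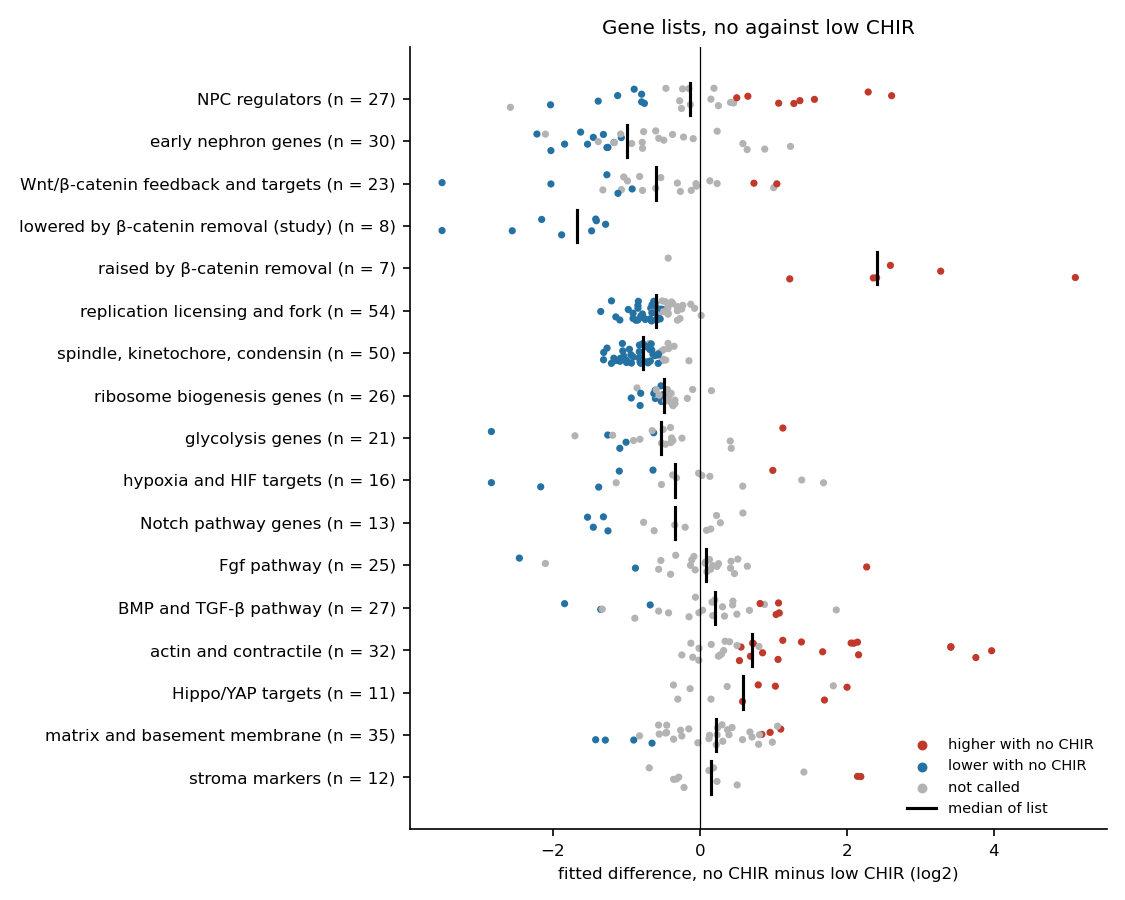
Fitted log2 difference (no CHIR minus low CHIR) of each tested member of 17 gene lists, 1 point per gene, red where called higher, blue where called lower and grey where not called, with a black line at the list's median. The replication and spindle lists lie almost wholly to the left of 0 (medians -0.60 and -0.77), the actin and contractile list mostly to the right (median 0.71), and NPC regulators on both sides.

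The regulators of the NPC state did not move as 1 group. Of 27 in the list, all detected, 8 rose with no CHIR and 7 fell, against 5.58% and 6.28% of all genes tested, and the median difference was -0.13 against 0.02 over all genes. *Cited1* (ENSMUSG00000051159), a transcriptional coactivator gene of NPCs, lies on chromosome X from 102247381 to 102252181 in GRCm38. It had 13094, 16798 and 16526 normalized counts without CHIR and 1639, 2129.6 and 4562 in low CHIR. *Osr1*, a transcription factor of the earliest renal mesenchyme, had 3563, 4469 and 4627 with no CHIR and 677, 667 and 1387 in low CHIR. For both genes every library with no CHIR was above every library in low CHIR, by log2 differences of 2.61 (SE 0.30, adjusted p = 0.000799) and 2.29 (SE 0.25, adjusted p = 0.000641). In high CHIR *Osr1* was at 0 in all 3 libraries and *Cited1* lay between 77.3 and 103.

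*Six2*, the transcription factor that defines NPCs, was not called. Its libraries held 2923, 3545 and 3295 normalized counts without CHIR and 2716, 2979 and 3072 in low CHIR. The groups overlapped, the difference was 0.15 (adjusted p = 0.482) and its 95% interval ran from -0.13 to 0.43. *Eya1*, a coactivator that partners with Six2, lay between 2466 and 2690 with no CHIR and between 3317 and 3904 in low CHIR, a difference of -0.46 that was under the cut-off of 0.5 (adjusted p = 0.0345).

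The homeobox genes *Meox1* and *Meox2* rose together. *Meox2* had 3665, 3909 and 3821 normalized counts without CHIR and 1180.0, 1494 and 2163 in low CHIR (difference 1.28, adjusted p = 0.00314), and *Meox1* had 266, 71.7 and 207 without CHIR and 39.4, 71.2 and 52.7 in low CHIR (difference 1.56, adjusted p = 0.0476). For *Meox1* replicate 2 with no CHIR was close to low CHIR replicate 2. Other rises were those of *Tmem100* (difference 1.07, adjusted p = 0.00666), *Tcf7l1* (difference 0.66, adjusted p = 0.00906) and *Eya2* (difference 1.36, adjusted p = 0.0385). *Tcf7l1* encodes the Tcf/Lef factor that most often acts as a repressor, and its libraries held 2584, 2294 and 2325 counts without CHIR and 1403, 1557 and 1613 in low CHIR. *Hoxd11* rose by 0.50, just past the cut-off. *Meox2*, *Meox1* and *Tcf7l1* lost their calls with all 9 libraries (adjusted p = 0.392, 0.131 and 0.0542). *Meox1* lost its call without no CHIR replicate 1, no CHIR replicate 3, low CHIR replicate 1, low CHIR replicate 2 or low CHIR replicate 3 (adjusted p = 0.0988, 0.183, 0.138, 0.0876 and 0.105). *Tcf7l1* lost its call without no CHIR replicate 3 (adjusted p = 0.0515).

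Other progenitor genes fell. *Pax2*, needed for the kidney mesenchyme to respond to induction, had 235, 319 and 270.3 normalized counts without CHIR and 752, 578 and 479 in low CHIR (difference -1.12, adjusted p = 0.0075). *Sall1*, a zinc finger factor of the NPC state, had 3000.2, 2291 and 2751 without CHIR and 4771, 4571 and 5538 in low CHIR (difference -0.89, adjusted p = 0.0038). In neither gene did the groups overlap. *Cited2*, a paralogue of *Cited1*, moved the opposite way to it, with 603, 604 and 456 counts without CHIR and 1522, 1590.3 and 1217 in low CHIR (difference -1.38, adjusted p = 0.0011). *Phf19*, which encodes a Polycomb-associated protein, fell most among those called, from 313, 418 and 407 in low CHIR to 89.7, 71.7 and 118 with no CHIR (difference -2.03, adjusted p = 0.001). The other falls were those of *Hoxa11*, *Hoxa10* and *Itga8*, the integrin chain that receives the niche signal nephronectin, between -0.79 and -0.75. With all 9 libraries in the fit, 3 of the list were higher and 2 lower, *Osr1* and *Cited1* among the former and *Cited2* among the latter. With 1 library left out, between 4 and 7 were higher and between 4 and 8 lower. *Pax2*, *Sall1* and *Phf19* lost their calls with all 9 libraries (adjusted p = 0.0878, 0.0667 and 0.0735).

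**Figure D2:**
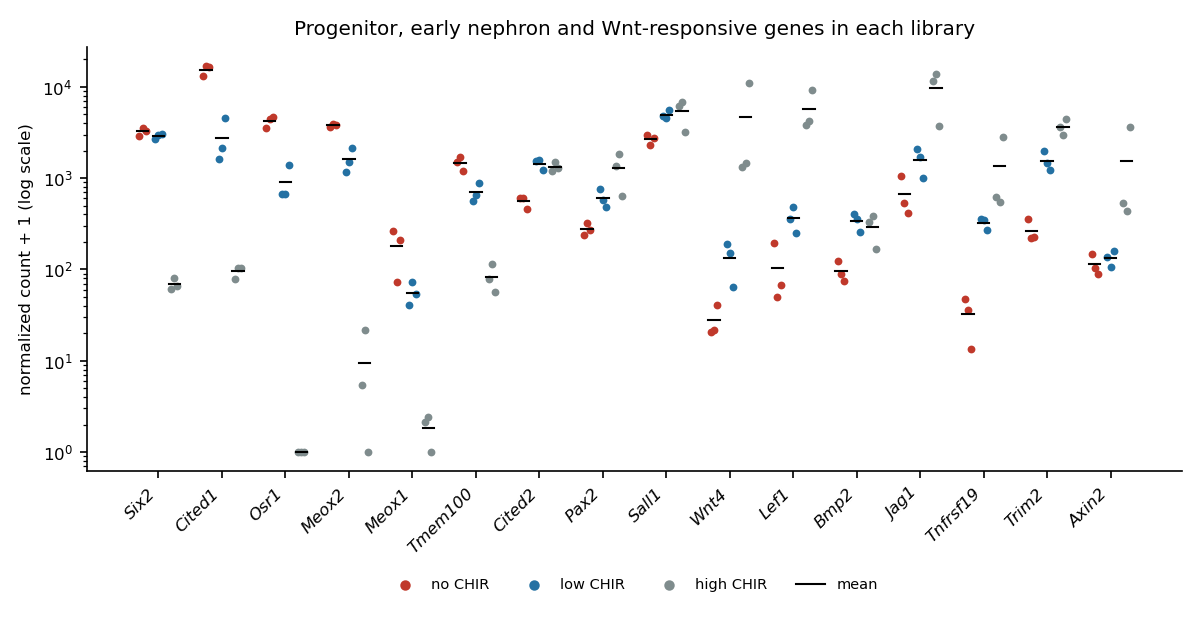
Normalized count plus 1 on a log scale for 16 progenitor, early nephron and Wnt-responsive genes, 1 point per library (red no CHIR, blue low CHIR, grey high CHIR, 3 each) with a line at the group mean. *Cited1*, *Osr1* and *Meox2* stand highest with no CHIR, *Wnt4*, *Lef1*, *Tnfrsf19* and *Trim2* stand lowest there, and *Six2* and *Axin2* overlap between no and low CHIR.

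Some genes of the early nephron fell with no CHIR. Of 30 tested in the list, 11 fell and none rose, the median difference was -1.0, and 25 had a fitted value below 0. *Wnt4*, the ligand that drives the mesenchyme to form epithelium, had 19.9, 20.5 and 40.2 normalized counts without CHIR and 188, 151 and 63.5 in low CHIR, while the high CHIR libraries held 1315, 1473 and 11108. *Lef1*, a Tcf/Lef factor, had 196, 48.3 and 65.9 with no CHIR, 356, 483 and 252 in low CHIR and 3811, 4197 and 9125 in high CHIR. Both were ordered the same way, lowest with no CHIR, and low CHIR lay far below high CHIR. The differences from low CHIR were -2.21 (SE 0.45, adjusted p = 0.0115) and -2.02 (SE 0.45, adjusted p = 0.0171). *Wnt4* lost its call with all 9 libraries (adjusted p = 0.111). *Wnt4* lost its call without low CHIR replicate 1 or low CHIR replicate 2 (adjusted p = 0.0533 and 0.0638). *Lef1* lost its call without no CHIR replicate 3, low CHIR replicate 1 or low CHIR replicate 2 (adjusted p = 0.0762, 0.0574 and 0.0886).

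*Bmp2* fell from 409, 353 and 259 normalized counts in low CHIR to 123, 87.8 and 73.7 with no CHIR (difference -1.84, adjusted p = 0.00236). Its call held in all 6 fits that left out a library, as did those of *Kdm2b*, which encodes a histone demethylase (difference -1.26), and *Cdh4*, the cadherin of early renal epithelium (difference -1.17). The Notch pathway, which shapes the proximal part of the nephron, had 4 falls and no rise among 13 tested genes. These were the ligands *Dll1* (difference -1.53) and *Jag1* (difference -1.31) and the target genes *Hey1* (difference -1.45) and *Heyl* (difference -1.25). *Lhx1* and *Pax8*, early nephron transcription factors, fell by 1.62 and 1.07. *Lhx1* lost its call with all 9 libraries (adjusted p = 0.497). It was also lost without no CHIR replicate 2, no CHIR replicate 3, low CHIR replicate 1 or low CHIR replicate 2. For *Jag1*, *Hey1* and *Pax8* the highest library without CHIR was above the lowest in low CHIR. *Fgf8* had 3.57, 1.46 and 4.47 counts without CHIR and 32.9, 23.7 and 4.79 in low CHIR, and its difference of -2.10 was not called (adjusted p = 0.103). For the Notch list, leaving out 1 library gave 0 to 1 rises and 0 to 5 falls, fewest without no CHIR replicate 3, low CHIR replicate 1 or low CHIR replicate 2, and all 9 libraries gave no rises and 1 fall. *Jag1*, *Hey1* and *Heyl* lost their calls with all 9 libraries, and *Hey1* with edgeR (adjusted p = 0.0523) and DESeq2 (adjusted p = 0.096) too. Replicate 1 with no CHIR held more *Lef1*, *Lhx1*, *Jag1* and *Hey1* than the other libraries of its group. Over the 6 fits that left out a library, between 3 and 16 genes of the early nephron list were lower, and the most, 16, were called without that replicate. With all 9 libraries 4 were lower.

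Of the general feedback and target genes of Wnt/β-catenin signaling, 5 of 23 tested fell and 2, *Myc* and *Cd44*, rose. For the Wnt target list, leaving out 1 library gave 1 to 2 rises and 2 to 9 falls, fewest without no CHIR replicate 3, low CHIR replicate 1 or low CHIR replicate 2, and all 9 libraries gave 1 rise and 3 falls. *Tnfrsf19*, a receptor of the TNF family and a known Wnt target, had 46.6, 35.1 and 12.3 normalized counts without CHIR and 360.0, 344 and 268 in low CHIR (difference -3.51, SE 0.42, adjusted p = 0.00103). *Lef1*, *Bambi* (difference -1.26), *Pdgfc* (difference -1.11) and *Znrf3* (difference -0.92), which encodes a ubiquitin ligase that removes Wnt receptors, made up the other falls. *Axin2*, the most used reporter of the pathway, held 148, 102 and 87.1 counts without CHIR, 137, 105 and 159 in low CHIR and 538, 433 and 3638 in high CHIR. Its no and low CHIR libraries overlapped, and the difference of -0.26 (adjusted p = 0.595) had a 95% interval from -0.88 to 0.35. *Ccnd1* was likewise not called (difference -0.78, adjusted p = 0.167). *Ctnnb1*, the gene of β-catenin itself, had 3085, 2254 and 2532 counts without CHIR and 3770.0, 4069 and 4080.4 in low CHIR, and its difference of -0.61 was called (adjusted p = 0.0197), though not with all 9 libraries (adjusted p = 0.0796). *Ctnnb1* lost its call without no CHIR replicate 3, low CHIR replicate 2 or low CHIR replicate 3 (adjusted p = 0.0985, 0.0706 and 0.0725).

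Of 26 Wnt ligands, receptors and secreted modulators 4 rose and 2 fell. For the Wnt ligand and receptor list, leaving out 1 library gave 1 to 3 rises and 0 to 3 falls, fewest without low CHIR replicate 1 or low CHIR replicate 2, and all 9 libraries gave 2 rises and no falls. *Dkk3* rose (difference 1.16, adjusted p = 0.0144), as did *Rspo3*, an R-spondin that strengthens Wnt reception (difference 1.19, adjusted p = 0.0393), and *Porcn*, the acyltransferase that Wnt secretion needs (difference 0.99, adjusted p = 0.0491). *Rspo2* was at 0 in all 3 low CHIR libraries and had 9.18, 7.32 and 64.8 normalized counts with no CHIR, where replicate 3 held most of it. The receptor gene *Fzd1* fell (difference -0.92, adjusted p = 0.025), as did *Wnt4*.

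A further list holds 8 genes lowered by β-catenin removal in low CHIR. They are the members of a longer list in the study near which it found β-catenin bound in high CHIR, and that choice also used these wild-type libraries, so their direction here is not independent evidence. All 8 fell with no CHIR, with a median difference of -1.68. *Sel1l3* had 501, 474 and 357 normalized counts without CHIR and 2067, 1983 and 1820.4 in low CHIR (difference -2.15, adjusted p = 0.000132). *Trim2*, a ubiquitin ligase gene, had 353, 219.5 and 225 without CHIR and 1992, 1449 and 1223 in low CHIR (difference -2.55, adjusted p = 0.000296). The fold from no to low CHIR was 4.44 for *Sel1l3*, 5.86 for *Trim2* and 11.4 for *Tnfrsf19*. The other 5, *Kif5c*, *Vat1l*, *Syt9*, *Hs3st3b1* and *Elavl4*, differed by between -1.88 and -1.28. In all 6 fits that left out a library each of the 8 was called, and 5 of 8 were called with all 9 libraries.

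Of 7 genes named as raised by β-catenin removal in low CHIR by the study or by an earlier look at these data, 6 rose with no CHIR. For the same list, leaving out 1 library gave 4 to 6 rises, and all 9 libraries gave 4 rises and no falls. By edgeR and by DESeq2 there were 5 rises. *Tafa4* (*Fam19a4* in the annotation), which encodes a secreted protein, had 1065, 858 and 992 normalized counts without CHIR and 15.8, 13.3 and 91.0 in low CHIR. *Angpt2*, an angiopoietin, had 217, 221 and 286 without CHIR and 21.0, 14.2 and 44.3 in low CHIR, and *Khdrbs2*, an RNA-binding protein gene, had 276, 167 and 212 without CHIR and 31.5, 34.2 and 38.3 in low CHIR. The groups were far apart in all 3 genes, with differences of 5.11, 3.28 and 2.59 (adjusted p = 0.000641, 0.00096 and 0.00061). *Bcl2l11*, which encodes the pro-apoptotic protein Bim, rose by 1.23 (adjusted p = 0.00204). *Mmp9* did not follow, with 20.1, 33.7 and 23.5 counts without CHIR and 80.2, 37.0 and 13.2 in low CHIR (difference -0.43, adjusted p = 0.689).

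The promoters of these genes were searched for the core that Tcf/Lef factors bind. Promoter sequences were those of RefSeq on GRCm38.p6, 32851 in all, from 250 bases before a transcription start to 50 after it. The Tcf/Lef core CTTTGA, on either strand, stood in 16% of all promoters and in 11.5% of those of genes tested. It stood in 12.2% of promoters of genes that fell and in 12.0% of those that rose. Of 15 promoters, which belong to 7 of the 8 genes lowered by β-catenin removal, 2 held it, those of *Tnfrsf19* and *Trim2*. These lie at chr14:61037938-61038237 and chr3:84270734-84271033, both on the minus strand, with the match in capitals (read on the opposite strand where it is TCAAAG).
Tnfrsf19: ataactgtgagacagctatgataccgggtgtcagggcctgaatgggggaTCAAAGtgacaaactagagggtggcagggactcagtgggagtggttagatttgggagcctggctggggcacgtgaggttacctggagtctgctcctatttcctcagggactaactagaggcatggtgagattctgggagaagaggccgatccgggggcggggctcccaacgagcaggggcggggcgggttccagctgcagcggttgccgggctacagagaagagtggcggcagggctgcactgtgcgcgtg
Trim2: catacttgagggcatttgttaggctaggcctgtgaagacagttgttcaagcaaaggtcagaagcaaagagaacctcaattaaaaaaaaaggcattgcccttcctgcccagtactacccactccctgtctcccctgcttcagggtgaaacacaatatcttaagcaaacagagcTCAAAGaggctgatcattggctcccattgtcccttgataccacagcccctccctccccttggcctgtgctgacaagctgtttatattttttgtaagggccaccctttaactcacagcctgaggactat

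Further sets of low CHIR libraries, which share no sample with the comparison, were set beside it. In the first, NPCs with a conditional β-catenin allele were transfected with Cre mRNA or not (2 libraries each). In the second, NPCs with Cas9 received a guide against *Ctnnb1* or against GFP (2 each), and in the last guides against the 4 Tcf/Lef genes (2 libraries) or GFP (3). All had been transfected with mCherry mRNA as well and sorted for it. These are differences of mean log2 values with no test. Transcripts of *Ctnnb1* were at 3085 and 2451 normalized counts after Cre and at 3880 and 3097 without it, and at 1652 and 1040 with its guide against 2521 and 3397 with the GFP guide. Counts over a whole gene do not show which exons were lost, so these levels check the removal only in part. The Tcf/Lef set is not a like counterpart. The study gave its guides a longer knockout period than β-catenin removal had. With single guides it reports a weaker loss of Tcf7 than of the other Tcf/Lef factors. No check of that knockout is given here.

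Of the genes higher with no CHIR, 84.8% were also higher after Cre removal of β-catenin, with a median difference of 0.49. The share was 79.5% after Cas9 removal (median 0.28) and 56.2% after Tcf/Lef knockout (median 0.06). Of the genes lower with no CHIR, 86.7%, 67.9% and 39.3% were lower in the same sets (medians -0.34, -0.11 and 0.07). Among genes that were not called, 49.9%, 50.4% and 54.7% were higher. With Cre and Cas9 the shares of both directions were above those of genes not called, and with Tcf/Lef knockout the share of lower genes that were lower, 39.3%, was below the 45.3% of genes not called. The removal sets also differed from their controls in other ways. Of 18 interferon response genes 0 were below controls after Cre (median 2.32) and 2 after Cas9 removal (median 0.36). Of 23 p53 targets 0 were below controls after Tcf/Lef knockout (median 0.65). The part of these shifts in the shares was not tested. The plot of called genes in the removal libraries gives their quartiles.

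**Figure D3:**
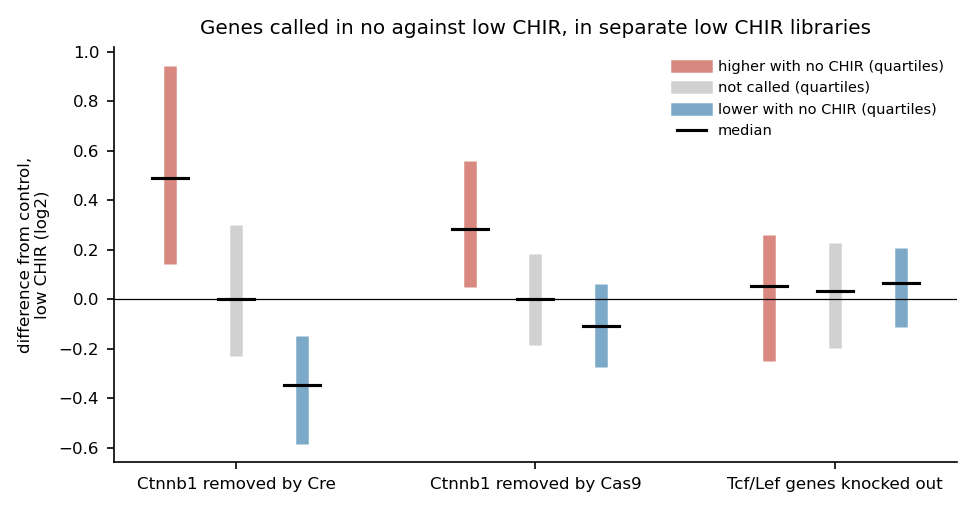
Log2 difference from control in low CHIR (vertical axis) after removal of *Ctnnb1* by Cre, by Cas9 and after knockout of the Tcf/Lef genes, for genes higher (red), lower (blue) or not called (grey) in no against low CHIR, as bars from the lower to the upper quartile with a line at the median. In Cre removal the medians were 0.49 for genes higher and -0.34 for genes lower with no CHIR, and in Tcf/Lef knockout all 3 medians lay between 0.04 and 0.07.

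Side by side with removal, single genes differed. *Sel1l3* was at -2.66 after Cre and -1.68 after Cas9 removal, and *Tnfrsf19* at -2.82 and -1.58. *Tafa4* was at 3.20 and 2.58, and *Khdrbs2* at 3.87 and 2.82. All 4 come from the lists chosen by their direction after removal. *Cited1* was at 0.03 and 0.58 and *Osr1* at 0.30 and 0.38, all smaller in size than with no CHIR. *Axin2*, which was not called with no CHIR, was at -1.55 after Cre and -0.28 after Cas9 removal.

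Many genes of DNA replication and mitosis fell with no CHIR. Of 54 genes for the licensing and firing of replication origins and for the replication fork, 32 fell and none rose, and 53 had a fitted value below 0. Of 50 genes for the spindle, the kinetochore and condensin, 39 fell and none rose, and all 50 had a fitted value below 0. The median differences were -0.60 and -0.77, against 0.02 over all genes. Relative to the mean of low CHIR, the median gene of the replication list was at -0.48, -0.71 and -0.61 in the libraries with no CHIR and between -0.08 and 0.06 in those of low CHIR. For the spindle list the values were -0.69, -0.88 and -0.73, and between -0.12 and 0.11. The plot of both lists by library shows the groups apart.

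**Figure D4:**
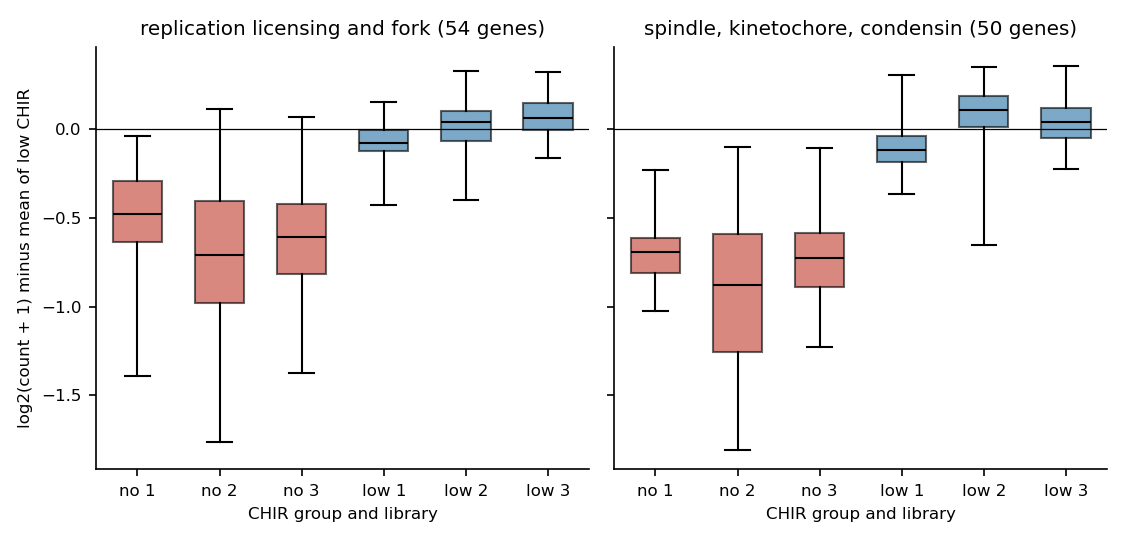
Log2(normalized count + 1) of each replication gene (left) and each spindle, kinetochore or condensin gene (right) minus its mean in low CHIR, as a box per library (quartiles, median line, whiskers to the lowest and highest gene), red for no CHIR and blue for low CHIR. Library medians with no CHIR lay between -0.71 and -0.48 on the left and between -0.88 and -0.69 on the right.

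*Mcm10*, which starts the unwinding of DNA, had 646, 357 and 468 normalized counts without CHIR and 1085, 1222 and 1344 in low CHIR (difference -1.35, adjusted p = 0.00345). *Uhrf1*, which carries DNA methylation through replication, had 4941, 3194 and 4046 without CHIR and 8376, 9025 and 9073 in low CHIR (difference -1.14, adjusted p = 0.00198), and its partner *Dnmt1* had 2875, 1811 and 2307 without CHIR and 4338, 3842 and 4759 in low CHIR (difference -0.91, adjusted p = 0.00826). *Exo1*, an exonuclease of DNA repair, had 628, 569 and 543 without CHIR and 1376, 1306 and 1404 in low CHIR (difference -1.23, adjusted p = 0.000641). Among mitotic genes, the checkpoint kinase gene *Bub1* had 1031, 639.6 and 917 with no CHIR and 1719, 2301 and 2329 in low CHIR (difference -1.31, adjusted p = 0.00296). In each of these 5 genes the groups did not overlap, and replicate 2 with no CHIR was the lowest library of all but *Exo1*. *Bub1b*, *Ect2* and *Espl1* fell by 1.31, 1.26 and 1.20. *Mcm10*, *Exo1* and *Bub1* lost their calls with all 9 libraries (adjusted p = 0.0901, 0.0727 and 0.1).

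Regulators of the cycle were fewer among the calls. Of 16 tested G1 cyclins, Cdks and Cdk inhibitors 2 rose and 3 fell (31.25% called, against 11.9% of all genes tested). For that list, leaving out 1 library gave 1 to 3 rises and 1 to 5 falls, and all 9 libraries gave no rises and no falls. *Ccna2*, the cyclin of S phase and G2, had 862, 490.3 and 765 normalized counts without CHIR and 1804, 2014 and 2256 in low CHIR (difference -1.55, adjusted p = 0.00152). *Ccne2* and *Cdk2* fell by 0.64 and 0.59. *Cdkn1c*, which encodes the Cdk inhibitor p57, rose, with 674, 957 and 1562 counts without CHIR and 231, 367 and 412 in low CHIR (difference 1.61, adjusted p = 0.00776), and *Cdkn2d* rose by 0.53. *Cdkn1a*, the p53-responsive inhibitor p21, had a difference of 0.17 (adjusted p = 0.779). Of the E2F and Rb family 5 of 13 fell, *E2f8* (difference -1.04) and *E2f7* (difference -0.84) by most. For the E2F and Rb list, leaving out 1 library gave 0 to 6 falls, fewest without no CHIR replicate 3, low CHIR replicate 1 or low CHIR replicate 3, and all 9 libraries gave no rises and 1 fall. *Ccna2* and *Cdkn1c* lost their calls with all 9 libraries (adjusted p = 0.0839 and 0.271). So did *Ccne2*, *Cdk2* and *Cdkn2d* (adjusted p = 0.0831, 0.0905 and 0.1203). Of the 6 fits that left out a library, these genes kept their calls in 2, 1 and 2.

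These calls rest on the 6-library fit. With all 9 libraries 9 of the replication genes and none of the spindle genes were called lower, while edgeR on the 6 libraries called 31 and 39. Without no CHIR replicate 3, 10 replication and 29 spindle genes were lower. In the Cre removal libraries 53 of 54 replication genes and 49 of 50 spindle genes were below their controls (medians -0.38 and -0.52). After Cas9 removal 49 of 54 and 32 of 50 were below (medians -0.14 and -0.04), and after Tcf/Lef knockout 12 of 54 and 11 of 50.

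The promoters of both lists were searched for motifs known from cell cycle genes. The E2F motif, searched on both strands as TTTCCCGC, TTTGGCGC, TTTCGCGC or TTTGCCGC, stood in 2.27% of all promoters and 3.88% of those of genes tested. It stood in 13 of 34 promoters of the replication genes that fell (38.2%) and in 3 of 33 of the spindle genes. The CHR (cell cycle genes homology region), TTTGAA on either strand, stood in 17.9% of all promoters and 12.2% of those of genes tested. The CHR and the Tcf/Lef core overlap where the letters CTTTGAA occur. The CHR was in 25 of 33 promoters of the spindle genes that fell (75.8%) and in 4 of 34 of the replication genes. Shares over members of the lists that were tested, called or not, were 32.1% for the E2F motif in replication genes and 67.4% for the CHR in spindle genes. Of the genes with a match, the 2 in each list that fell most are printed with the matches in capitals. The promoters are those of *Uhrf1* (chr17:56304063-56304362, plus strand), *Dnmt1* (chr9:20952574-20952873, minus strand), *Bub1b* (chr2:118597961-118598260, plus strand) and *Ect2* (chr3:27153829-27154128, minus strand).
Uhrf1: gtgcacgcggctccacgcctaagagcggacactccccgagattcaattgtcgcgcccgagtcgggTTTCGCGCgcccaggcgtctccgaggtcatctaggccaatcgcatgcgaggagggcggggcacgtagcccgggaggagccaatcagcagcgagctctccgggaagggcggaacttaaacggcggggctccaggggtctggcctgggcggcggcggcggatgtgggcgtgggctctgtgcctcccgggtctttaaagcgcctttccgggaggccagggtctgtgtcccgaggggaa
Dnmt1: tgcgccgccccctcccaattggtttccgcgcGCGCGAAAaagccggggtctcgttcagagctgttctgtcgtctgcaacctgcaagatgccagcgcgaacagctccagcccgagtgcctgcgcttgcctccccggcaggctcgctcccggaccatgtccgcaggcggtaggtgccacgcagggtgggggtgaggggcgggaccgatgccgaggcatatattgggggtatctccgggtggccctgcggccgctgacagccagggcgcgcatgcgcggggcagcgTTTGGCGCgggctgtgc
Bub1b: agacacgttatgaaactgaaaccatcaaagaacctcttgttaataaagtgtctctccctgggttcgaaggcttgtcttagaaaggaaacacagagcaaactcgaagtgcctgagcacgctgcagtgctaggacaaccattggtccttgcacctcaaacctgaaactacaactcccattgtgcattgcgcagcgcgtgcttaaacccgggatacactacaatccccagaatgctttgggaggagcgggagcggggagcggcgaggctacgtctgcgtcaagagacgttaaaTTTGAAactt
Ect2: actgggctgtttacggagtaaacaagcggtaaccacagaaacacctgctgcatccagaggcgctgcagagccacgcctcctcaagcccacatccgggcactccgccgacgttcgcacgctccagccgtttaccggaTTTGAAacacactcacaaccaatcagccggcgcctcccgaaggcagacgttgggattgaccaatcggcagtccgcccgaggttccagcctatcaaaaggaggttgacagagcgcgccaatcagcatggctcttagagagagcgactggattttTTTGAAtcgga

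The paralogues *Mycn* and *Myc*, which encode growth-promoting transcription factors, moved in opposite directions. *Mycn* (ENSMUSG00000037169) lies on chromosome 12 from 12936093 to 12941914 in GRCm38. It had 565, 656 and 544 normalized counts without CHIR and 2137, 2127 and 1940.2 in low CHIR (difference -1.82, SE 0.14, adjusted p = 0.000132). *Myc*, which lies on chromosome 15 from 61985391 to 61990374 in GRCm38, had 2538, 1771 and 2165 without CHIR and 1097, 947 and 1055 in low CHIR (difference 1.05, SE 0.16, adjusted p = 0.00284). Within each gene the groups did not overlap, and both calls held in every fit that left out a library and with all 9 libraries (adjusted p = 0.00336 and 0.0182). *Mxd4*, which encodes a partner of Max that opposes Myc, rose by 1.02 (adjusted p = 0.00198). In Cre removal *Mycn* was at -2.05 and *Myc* at 0.02. The study also names *Mycn* as dependent on β-catenin from its Cre data, and values after Cas9 removal are not given here.

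Some genes for ribosome production and for glycolysis fell with no CHIR. Of 26 ribosome biogenesis genes 9 fell and none rose (median -0.48), among them the nucleolar proteins *Npm1* (31993, 34747 and 29815 normalized counts without CHIR, 45180.4, 56472 and 45716 in low CHIR, difference -0.60) and *Ncl* (difference -0.60), *Gar1* (difference -0.81) and the polymerase I subunit gene *Polr1b* (difference -0.93). Over the fits that left out a library between 1 and 14 of them were lower. Of 21 glycolysis genes 5 fell and 1 rose (median -0.52). *Hk2*, the hexokinase of dividing cells, had 633, 717 and 936 counts without CHIR and 1600.5, 1793 and 2004 in low CHIR (difference -1.25, adjusted p = 0.00184). *Gapdh*, often used as a reference gene, had 16605, 15717 and 16272 without CHIR and 22392, 30617 and 22807 in low CHIR, a difference of -0.63 (adjusted p = 0.021) with no overlap of the groups. For the glycolysis list, leaving out 1 library gave 0 to 2 rises and 2 to 13 falls, fewest without no CHIR replicate 3, and all 9 libraries gave no rises and 3 falls. The rise, *Aldoc*, lost its call with edgeR (adjusted p = 0.0514). *Pkm* and *Pfkp* fell by 1.0 and 1.09, and *Aldoc* rose by 1.13. *Npm1* lost its call with all 9 libraries (adjusted p = 0.0667). *Npm1* lost its call without no CHIR replicate 3, low CHIR replicate 2 or low CHIR replicate 3 (adjusted p = 0.13, 0.0665 and 0.0588). *Gapdh* lost its call without no CHIR replicate 3 or low CHIR replicate 2 (adjusted p = 0.0953 and 0.0558).

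Some of these genes respond to low oxygen too. *Pdk1*, which keeps pyruvate out of mitochondria, had 50.7, 26.3 and 53.6 normalized counts without CHIR and 118, 634 and 369 in low CHIR (difference -2.83, adjusted p = 0.00776), and *Ak4* had 51.5, 36.6 and 69.3 without CHIR and 125, 364 and 271 in low CHIR (difference -2.16, adjusted p = 0.00702). In both genes low CHIR replicate 2 was the highest library and replicate 1 the lowest of the low CHIR group. Of 16 hypoxia-responsive genes 5 fell and 1, *Ndrg1*, rose (median -0.34). For the hypoxia list, leaving out 1 library gave 0 to 2 rises and 2 to 4 falls, fewest without no CHIR replicate 3, and all 9 libraries gave no rises and 2 falls. In serine synthesis *Phgdh*, the first enzyme, rose from 6682, 7334 and 10077 counts in low CHIR to 14567, 14228 and 17476 with no CHIR (difference 0.96, adjusted p = 0.00571), whereas *Psat1*, the next enzyme, fell from 2819, 4153 and 2864 to 1421, 1317 and 1330.4 (difference -1.25, adjusted p = 0.00145).

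Genes of the actin cytoskeleton and of smooth muscle contraction had the most rises of any list. Of 32 tested, 18 rose and none fell, with a median difference of 0.71. *Myl9* (ENSMUSG00000067818), the regulatory light chain of non-sarcomeric myosin, lies on chromosome 2 from 156775420 to 156781658 in GRCm38. It had 2144, 2026 and 3016 normalized counts without CHIR and 183, 104 and 273 in low CHIR, a difference of 3.76 (SE 0.30, adjusted p = 0.000163), which is 13.5-fold on the log2(value + 1) scale. *Cnn2*, a calponin, had 10583, 8158 and 11938 without CHIR and 2156, 1689 and 3162 in low CHIR (difference 2.16, adjusted p = 0.000489). The LIM domain gene *Fhl2* had 2304, 1674 and 2234 without CHIR and 386, 504 and 564 in low CHIR (difference 2.10, adjusted p = 0.000252). Every library with no CHIR held several times what any low CHIR library held of *Myl9*.

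*Cald1* and *Tpm1*, which encode the actin-binding proteins caldesmon and tropomyosin, were abundant in both groups. *Cald1* had 9288, 9509 and 10460.1 normalized counts without CHIR and 3678, 3544 and 3986 in low CHIR (difference 1.38, adjusted p = 0.000235), and *Tpm1* had 8527, 8047 and 11882 without CHIR and 3865, 2060.3 and 3158 in low CHIR (difference 1.67, adjusted p = 0.00172). *Acta2*, smooth muscle actin, had 3259, 1358 and 1578 without CHIR and 945, 269 and 315 in low CHIR (difference 2.15, adjusted p = 0.0123), with replicate 1 the highest library of each group. Less abundant were *Tagln* (127, 155 and 247 with no CHIR, 35.5, 7.60 and 12.0 in low CHIR, difference 3.42) and *Lmod1* (59.6, 36.6 and 99.4 without CHIR and 10.5, 3.80 and 2.40 in low CHIR, difference 3.42). The myosin light chain *Myl6* rose by 1.13, *Cnn1* by 2.06 and *Actg2* by 3.97, while cytoplasmic *Actg1* rose by 0.54. *Acta2* lost its call without low CHIR replicate 2 (adjusted p = 0.0654). *Actg2*, with only 23.7, 11.4 and 0 counts in low CHIR, lost its call with DESeq2 (adjusted p = 0.0546). The *Actg2* call was also lost without no CHIR replicate 3 or low CHIR replicate 2.

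**Figure D5:**
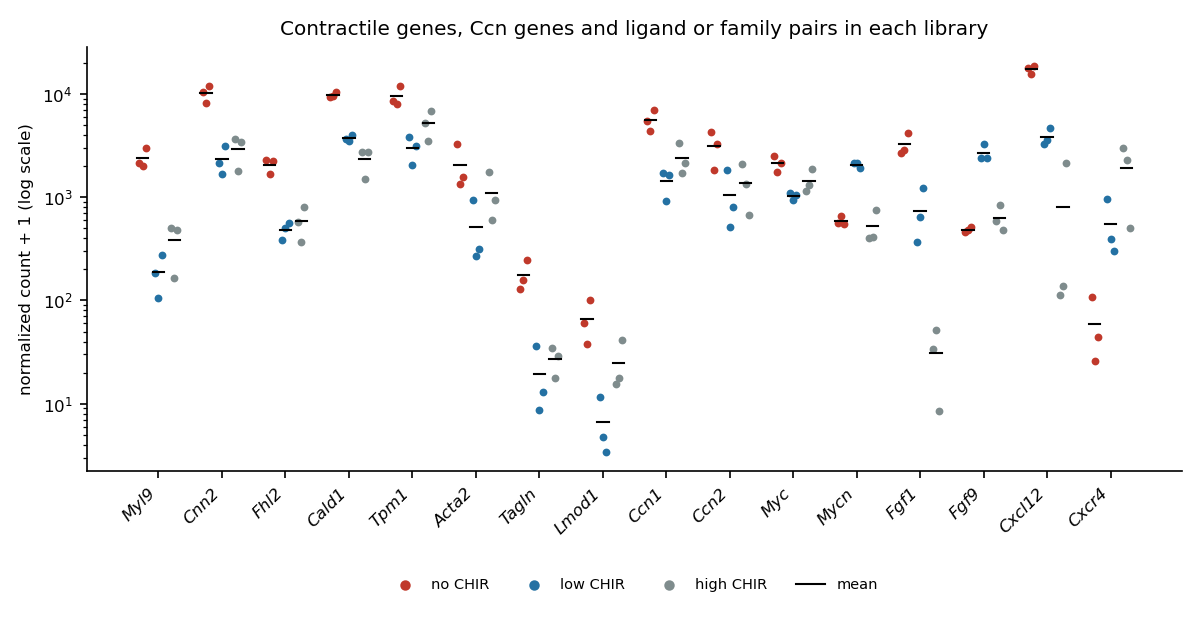
Normalized count plus 1 on a log scale for 8 contractile genes, *Ccn1* and *Ccn2*, and 3 pairs of related genes, 1 point per library (red no CHIR, blue low CHIR, grey high CHIR, 3 each) with a line at the group mean. The contractile genes have their highest means with no CHIR, *Myc* and *Fgf1* lie above and *Mycn* and *Fgf9* below their low CHIR levels, and *Cxcl12* and its receptor gene *Cxcr4* lie on opposite sides.

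The high CHIR libraries held 499.7, 163 and 482 normalized counts of *Myl9* and 3656, 1788 and 3413 of *Cnn2*, all below the libraries with no CHIR. With all 9 libraries in the fit 12 of the 32 were called higher, and between 9 and 20 with 1 library left out. In Cre removal 26 of the 32 were above their controls (median 0.31), with *Myl9* at 1.15 and *Tagln* at 1.81. In Cas9 removal 24 were above (median 0.21), and in Tcf/Lef knockout 14 (median -0.01). *Acta2* also stands in the list of stroma markers. The summed level of that list lay between 26852 and 59514 normalized counts without CHIR and between 17370 and 23546 in low CHIR, while *Foxd1*, which defines the stroma, overlapped between 17.6 and 40.3 and between 26.6 and 46.0, and without *Cxcl12* the sums overlapped, between 11143 and 41456 without CHIR and between 12686 and 20293 in low CHIR. The part of stroma cells in the result was not tested.

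The CArG box, the sequence that serum response factor binds, stood in 1.63% of all promoters and 1.36% of those of genes tested, on both strands. It stood in 8 of 20 promoters of the actin and contractile genes that rose (40.0%), in 2.77% of promoters of all genes that rose and in 1.55% of those that fell. Over the tested members of the list, called or not, it stood in 10 of 34 promoters (29.4%). The 20 promoters belong to 16 of the 18 genes and 8 matches to 7 genes, *Actg1*, *Cnn2*, *Fhl1*, *Fhl2*, *Lima1*, *Myl6* and *Myl9*. The 2 of these that rose most are printed with the match in capitals, *Myl9* at chr2:156775214-156775513 and *Cnn2* at chr10:79988350-79988649, both on the plus strand.
Myl9: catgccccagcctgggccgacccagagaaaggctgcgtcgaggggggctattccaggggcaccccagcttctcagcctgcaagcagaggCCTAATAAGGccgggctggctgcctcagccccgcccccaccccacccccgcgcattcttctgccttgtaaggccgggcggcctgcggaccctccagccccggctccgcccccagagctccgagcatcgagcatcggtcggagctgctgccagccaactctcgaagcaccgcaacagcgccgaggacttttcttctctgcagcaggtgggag
Cnn2: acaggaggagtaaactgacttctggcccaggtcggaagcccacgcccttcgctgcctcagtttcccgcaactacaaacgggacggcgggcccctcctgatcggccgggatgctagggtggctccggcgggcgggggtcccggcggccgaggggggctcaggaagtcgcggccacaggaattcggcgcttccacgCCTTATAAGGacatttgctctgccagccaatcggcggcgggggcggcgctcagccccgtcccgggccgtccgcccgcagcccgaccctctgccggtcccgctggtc

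Targets of Hippo/YAP signaling, a pathway that responds to cell density and tension, had 5 rises and no fall among 11 tested genes (median 0.58). *Ccn1*, a secreted matrix protein, had 5476, 4384 and 6986 normalized counts without CHIR and 1721, 918 and 1639.6 in low CHIR (difference 2.0, adjusted p = 0.00102). *Ccn2* had 4332, 1834 and 3284 without CHIR and 1848, 512 and 807 in low CHIR (difference 1.70, adjusted p = 0.026), and there no CHIR replicate 2 fell below low CHIR replicate 1. *Lats2*, *Crim1* and *Tead1* rose by 1.03, 0.80 and 0.58, while *Ankrd1* (difference 1.82, adjusted p = 0.172) and *Amotl2* (difference 0.37) were not called. The count was between 1 and 4 with 1 library left out and 2 with all 9 libraries. The Tead motif GGAATG, on either strand, stood in 14.7% of all promoters and 12.4% of those of genes tested. It stood in 19.3% of promoters of genes that rose and 11.9% of those that fell. Of promoters of tested genes, 7 of 10 in the Hippo/YAP list and 10 of 34 in the actin and contractile list (29.4%) held it. *Ccn2* lost its call with all 9 libraries (adjusted p = 0.0855) and with DESeq2, by which 4 genes of the list rose. *Ccn2* lost its call without no CHIR replicate 3, low CHIR replicate 2 or low CHIR replicate 3 (adjusted p = 0.0941, 0.105 and 0.0708).

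Matrix genes split. Of 35 tested, 3 rose and 4 fell, the rises being *Sparc* (139428, 151174 and 146105 normalized counts without CHIR, 72344, 78675 and 93201 in low CHIR, difference 0.85), *Nid1* (difference 1.10) and fibronectin, *Fn1* (difference 0.96). *Lama4*, *Frem2*, *Col4a6* and *Lamc1*, all of basement membranes, fell by 1.42, 1.28, 0.90 and 0.65. For the matrix list, leaving out 1 library gave 2 to 4 rises and 1 to 9 falls, fewest without no CHIR replicate 3, and all 9 libraries gave no rises and no falls. Among matrix proteases and their inhibitors, *Timp2* (difference 1.40), *Timp1* (difference 0.79) and the plasminogen activator *Plat* (difference 1.12) rose, and *Adamts4* fell by 1.32. For the protease list, leaving out 1 library gave 2 to 4 rises and 0 to 1 falls, fewest without no CHIR replicate 3 or low CHIR replicate 2, and all 9 libraries gave 2 rises and no falls. *Sparc* lost its call with all 9 libraries (adjusted p = 0.121).

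Of the 25 Fgf pathway genes tested 12.0% were called, close to the 11.9% of all genes tested. *Fgf9*, a ligand that maintains NPCs, had 459.8, 483 and 515 normalized counts without CHIR and 2411, 3281 and 2389 in low CHIR (difference -2.45, SE 0.16, adjusted p = 0.000132). *Fgf1* had 2680.0, 2897 and 4179 without CHIR and 368, 642 and 1216 in low CHIR (difference 2.27, SE 0.35, adjusted p = 0.00338). Both are ligands of one family, and their groups were apart in opposite directions. *Fgfr2* fell (difference -0.87, adjusted p = 0.0195), and no other of the 25 Fgf pathway genes tested, the ERK feedback genes included, was called. For the Fgf list, leaving out 1 library gave 1 to 2 rises and 1 to 4 falls, and all 9 libraries gave no rises and 2 falls. *Fgf1* lost its call with all 9 libraries (adjusted p = 0.0585).

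In the BMP and TGF-β pathways 4 of 27 tested genes rose and 3 fell. *Bmp4* rose (620.2, 457 and 617 normalized counts without CHIR, 343, 191 and 305 in low CHIR, difference 1.04) where *Bmp2* fell. *Bmper*, a secreted BMP-binding protein, had 13352, 9246 and 12389 without CHIR and 4278, 5317 and 7229 in low CHIR (difference 1.07), and *Tgfb2* and *Tgfbr3* rose by 1.08 and 0.82. The receptor gene *Bmpr1b* fell by 1.35, and *Id2*, a gene that BMP signaling induces, fell by 0.67. For the BMP and TGF-β list, leaving out 1 library gave 1 to 4 rises and 1 to 5 falls, fewest without no CHIR replicate 3 or low CHIR replicate 2, and all 9 libraries gave no rises and 1 fall. *Bmp4* and *Bmper* lost their calls with all 9 libraries (adjusted p = 0.558 and 0.216). *Bmp4* lost its call without no CHIR replicate 3 or low CHIR replicate 2 (adjusted p = 0.094 and 0.0627). *Id2* lost its call with all 9 libraries and with edgeR, and kept it in 2 of the 6 fits that left out a library. *Bmpr1b* and *Tgfb2* also lost their calls with all 9 libraries (adjusted p = 0.1125 and 0.531).

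The chemokine *Cxcl12* (ENSMUSG00000061353) lies on chromosome 6 from 117168535 to 117181367 in GRCm38 and had 18058, 15709.5 and 18596 normalized counts without CHIR and 3254, 3628 and 4684 in low CHIR (difference 2.19, SE 0.15, adjusted p = 0.000132). The gene of its receptor, *Cxcr4*, had 108, 24.9 and 43.6 without CHIR and 953, 395 and 303 in low CHIR (difference -3.28, SE 0.52, adjusted p = 0.00382). The ligand was higher and the receptor lower in every library with no CHIR. For *Cxcl12* the call was lost with all 9 libraries (adjusted p = 0.169), where high CHIR replicate 3 held 2167 counts against 112 and 137.

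Of 26 axon guidance genes 5 rose and 3 fell, and of 10 angiogenic genes 3 rose. For the axon guidance list, leaving out 1 library gave 1 to 4 rises and 1 to 5 falls, fewest without no CHIR replicate 3, and all 9 libraries gave 1 rise and 3 falls. *Nrp1*, a receptor of semaphorins and VEGF, rose from 2141, 1884 and 2352 normalized counts in low CHIR to 5689, 3864 and 6287 with no CHIR (difference 1.29, adjusted p = 0.00216), and *Sema3c*, a semaphorin, fell from 703, 511 and 689.8 to 215, 148 and 115 (difference -2.02, adjusted p = 0.00104). *Slit3* rose by 2.31 and *Slit1* fell by 2.31. The receptors *Ephb2*, *Robo2*, *Unc5c* and *Plxnd1* rose by 1.24, 0.67, 0.82 and 0.82, and *Sema4d* fell by 1.53. *Slit3*, *Robo2*, *Unc5c* and *Plxnd1* lost their calls with all 9 libraries (adjusted p = 0.0991, 0.666, 0.512 and 0.0767). *Emcn*, an endothelial sialomucin gene, had 323, 176 and 250.2 counts without CHIR and 18.4, 154 and 31.1 in low CHIR (difference 2.41, adjusted p = 0.0307), with low CHIR replicate 2 near the no CHIR libraries. *Emcn* lost its call with all 9 libraries (adjusted p = 0.0787), and with edgeR and DESeq2 on the 6 libraries too. *Emcn* lost its call without no CHIR replicate 1, no CHIR replicate 3, low CHIR replicate 1 or low CHIR replicate 3 (adjusted p = 0.0514, 0.102, 0.0913 and 0.0886).

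The largest changes by size, among called genes that averaged 50 normalized counts or more and had no overlap, included genes with no place in these lists. *Cdc42ep3*, which encodes an effector of the small GTPase Cdc42, had 2786, 3565 and 4214 normalized counts without CHIR and 268, 158 and 539 in low CHIR (difference 3.61, adjusted p = 0.000399). *Nxph1*, a neurexophilin, had 615, 523 and 1569 without CHIR and 34.2, 66.5 and 184 in low CHIR (difference 3.39, adjusted p = 0.00434). *Fgl2* had 318, 395 and 597 without CHIR and 1.31, 29.4 and 44.3 in low CHIR (difference 4.84, adjusted p = 0.0069). *Gm16505*, *Ang5* and *AI838599* rose by 4.13, 4.14 and 4.28. *Gm16505* and *Ang5* lost their calls with all 9 libraries (adjusted p = 0.058 and 0.0541) and without no CHIR replicate 3 or low CHIR replicate 2, *Ang5* without no CHIR replicate 2 as well, and *Gm16505* with DESeq2 (adjusted p = 0.103). *Ang5* belongs to a family of near-identical genes, so its reads may be split with its copies.

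The largest falls under the same rule were those of *Chrna6* (difference -5.97, adjusted p = 0.000489) and *Gpx6* (difference -5.59, adjusted p = 0.00206). *Chrna6* had 0.51, 5.85 and 5.59 normalized counts without CHIR and 393, 267 and 157 in low CHIR. *Gpx6* had 1.78, 1.46 and 0 without CHIR and 183, 158 and 25.2 in low CHIR. Among the other falls, *Gfra2*, a co-receptor for neurturin, had 72.6, 19.0 and 21.2 normalized counts without CHIR and 344, 324 and 275 in low CHIR (difference -3.30, adjusted p = 0.00171). *St8sia6*, a sialyltransferase gene, had 14.8, 8.78 and 11.2 without CHIR and 243, 157 and 125 in low CHIR (difference -3.78, adjusted p = 0.000399), *Hs3st6*, a heparan sulfate sulfotransferase gene, had 9.94, 4.39 and 11.2 without CHIR and 118, 117 and 99.4 in low CHIR (difference -3.65, adjusted p = 0.000737), and *Asgr1* had 9.94, 5.85 and 4.47 without CHIR and 172, 95.9 and 79.0 in low CHIR (difference -3.89, adjusted p = 0.000799). The call of each held in all 6 fits with a library left out. *Hist2h3c2*, a replication-dependent histone gene, fell by 3.91, but it shares near-identical sequence with other histone genes and its reads are uncertain. *Asgr1* lost its call with all 9 libraries (adjusted p = 0.0837).

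Markers of other kidney cells were read for all members of each list. Of 12 tested stroma markers 2, *Cxcl12* and *Acta2*, rose, and their median was 0.16. The sum over the list of 13 was highest in replicate 1 with no CHIR. Sums of the endothelium list were between 1189 and 1523 with no CHIR and between 699 and 982 in low CHIR, but *Tek*, *Tie1*, *Esam* and *Sox17* were under 10 counts in all 6 libraries. Blood and immune markers summed to between 1130 and 1481 and between 836 and 976, and none of their 8 tested members was called. The ureteric bud genes *Ret*, *Wnt9b* and *Aqp2* were under 10 counts or not in the table, and 1 marker of that list, *Krt7*, rose (difference 1.88). *Krt7* lost its call with all 9 libraries and with no filter on low values. It kept the call in 1 of the 6 fits that left out a library. The rises in the endothelium list were those of *Emcn* and *Kdr* (difference 2.05). *Kdr* lost its call with all 9 libraries (adjusted p = 0.195) and in each of the 6 fits that left out a library. *Synpo* rose in the list of podocyte and tubule markers (difference 2.43), where *Umod*, *Slc12a1* and *Slc12a3* were under 10 counts or not in the table. The part of these cells in the rises of matrix and vascular genes was not tested. The sum of the 27 NPC regulators was between 59541 and 64599 with no CHIR and between 44650 and 56138 in low CHIR.

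Stress and immediate early lists were set against the 11.9% called of all genes tested. The share called was 6.667% for AP-1 and immediate early genes and 8.696% for p53 targets. It was 11.111% for interferon response genes and 13.043% for genes of the unfolded protein and integrated stress response. Of 15 AP-1 and immediate early genes 1, *Klf6*, rose (difference 0.61). Of 23 genes of the unfolded protein and integrated stress response *Phgdh* rose and *Psat1* and *Shmt2* (difference -0.61) fell. Cell adhesion had 3 rises, *Cd44*, *Itgav* and *Itgb5*, and 3 falls, *Itga8*, *Cdh4* and *Ncam1*, among 21. For the adhesion list, leaving out 1 library gave 0 to 2 rises and 1 to 5 falls, fewest without no CHIR replicate 3, low CHIR replicate 2 or low CHIR replicate 3, and all 9 libraries gave no rises and 1 fall. *Itgav* lost its call in each of the 6 fits that left out a library and with edgeR (adjusted p = 0.0542). Of 23 p53 targets 2, *Phlda3* (difference -1.69) and *Gtse1* (difference -0.71), fell. Of 18 interferon response genes *Xaf1* rose (difference 2.08) and *Ifit2* fell (difference -1.22). In the 4 lists of AP-1, integrated stress, p53 and interferon genes, all 9 libraries left 1, 1, 0 and 0 rises and 0, 1, 1 and 0 falls. Mitochondrial genes made up between 2.0% and 3.22% of counts without CHIR and between 1.42% and 2.50% in low CHIR, and their part in the results was not tested.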

How the data were processed

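RNA was measured by cDNA amplification from small amounts (SMARTer) and paired-end sequencing in wild-type NPCs at 3 CHIR levels, of which no and low CHIR (3 libraries each) were compared here. The authors aligned reads with STAR to a combined mouse (GRCm38) and human reference, counted them per gene with featureCounts and deposited normalized counts (a signal: reads divided by a DESeq2 size factor per library). Whole reads were recovered for all values (tolerance 0.01), with 13651129 to 76071568 reads per library. The strand setting was not given in the sources used here, so overlapping and antisense genes are uncertain. Deposited lists of the authors' own fold changes and p-values were not used.

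Genes that averaged 10 or more normalized counts over the 6 libraries were fitted on log2(normalized count + 1) by limma 3.58.1 (trend, R 4.3.3) with Benjamini-Hochberg adjustment over all genes tested. With 3 libraries against 3 an exact permutation test cannot go below p = 0.1, so single values were not tested that way. edgeR 4.0.16 and DESeq2 1.42.0 on the recovered reads, other pseudocounts (0.5 and 5), filters and scaling, a replicate block, all 9 wild-type libraries and each library left out in turn were alternatives. The fit was tested on simulated data. Gene symbols matched 25701 of 25760 identifiers. The members and gene lists were chosen with earlier results of these data known. The 6-library fit was made the main one when the counts of that fit and of the 9-library fit were known. Named genes were the 10 largest rises and falls among genes called with a mean of at least 50 and no overlap, the 3 largest of each direction among the called genes of each list, and a set of kidney genes named whatever they did. Other list members were named as examples after their values were seen. Removal libraries come from tables normalized separately, so they were compared with controls of their own table only.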

Additional observations from a re-analysis of the deposited data

How the results depend on the processing

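Which libraries entered the fit mattered more than the tool, pseudocount, filter or scaling. A fit of all 9 wild-type libraries called 427 genes higher and 460 lower, of which 426 and 456 were also called with 6 libraries. With 1 library left out the calls ran from 294 to 1055 (higher) and from 388 to 1663 (lower). A log2 difference of at least 1 left 562 higher and 402 lower. Under all other alternatives counts were between 845 and 1262 higher and between 1012 and 1353 lower, with 963 and 1075 by edgeR and 1262 and 1353 by DESeq2. Of 144 genes named by the rule 138 had an adjusted p under 0.05 (with *Eya1*, whose difference was under the cut-off of 0.5), and 61 kept it under every alternative that kept these libraries or added to them. The fit of 9 libraries took 76 of them past it, edgeR 6 and DESeq2 5. Of the genes not called, *Cdkn1a* ran from -0.10 to 0.54 with 1 library left out (negative at -0.03 without no CHIR replicate 1 and at -0.10 without low CHIR replicate 3). *Mmp9* ran from -1.09 (without low CHIR replicate 3) to 0.17 (without low CHIR replicate 1), and the cause was not tested. The labels number replicates 1 to 3 in both groups, but deviations of same-numbered libraries correlated at 0.0116, -0.0331 and 0.1771, so the numbers were not read as a pairing. With the replicate block 1062 genes were higher and 1186 lower, and 1 of these genes, *Kdr*, passed 0.05. Shares of called genes that moved the same way after removal were taken again over the calls of the 9-library fit, an alternative chosen after seeing the data, and were 85.2%, 85.0% and 59.1% for genes higher and 84.3%, 61.1% and 43.5% for genes lower (Cre, Cas9 and Tcf/Lef). Depth limits genes near 10 normalized counts, where a few reads set the value.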
